A study of Mus musculus with 36 samples.

Results

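The brainstems of the wild-type mice of 2 narcolepsy model lines were compared across all genes, with 3 libraries of the Hcrt/Orexin-ataxin-3 line wild type set against 3 libraries of the Hcrt/Orexin knockout line wild type. These 6 libraries were chosen by their labels, out of 36 in the series, which covers brainstem, cortex and hypothalamus. Neither wild type carries the modification of its line, so the contrast asks how far the animals behind the models already differed. In the ataxin-3 line the transgenic mice (titled tg/+) carry a toxic ataxin-3 fragment driven by the Hcrt promoter, which kills hypocretin neurons, and in the other line the Hcrt gene is disrupted. The labels give strain C57BL/6 for every animal of the 4 genotypes and name no agent or treatment. Sex, age, breeding history, littermates and animal identity are not given in the labels, so the p-values below measure the spread between these samples, which may be technical.

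Hypocretin (orexin) is a neuropeptide of the lateral hypothalamus that keeps arousal stable, and its axons reach the noradrenergic, serotonergic and cholinergic nuclei of the brainstem, where the receptors Hcrtr1 and Hcrtr2 are read. Mouse lines kept apart for generations collect differences of their own, both by drift and by stretches of donor chromosome that stay beside a targeted gene. When 2 models are set beside each other, such differences add to whatever the modification does.

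Levels are CPM, read counts scaled to library size with TMM factors. A difference is a log2 fold change of the ataxin-3 line over the knockout line, so that a positive value means higher in the ataxin-3 line, given with its standard error (SE). A gene is called where the adjusted p of edgeR's quasi-likelihood test is under 0.05. Gene counts were 27137630, 21915540 and 35224306 in the ataxin-3 line wild types, against 35450016, 33344972 and 38251227 in the knockout line wild types. Summed Hox genes, which mark the hindbrain, lay at 142 to 246 CPM in the 12 brainstem libraries and at no more than 1.03 CPM in the other tissues, as the label brainstem requires.

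Libraries 1 and 2 of the ataxin-3 line wild type stood apart from the other 10 brainstem libraries. Reads without an annotated feature made up 10.12%, 15.18% and 6.376% of the counted total in ataxin-3 line wild types 1, 2 and 3, against 6.683%, 6.637% and 6.888% in the knockout line wild types. Gm42418, a predicted gene that overlaps a ribosomal RNA repeat, had 15972, 91596 and 512 CPM in the ataxin-3 line wild types, against 665, 487 and 508 CPM in the knockout line wild types. The mitochondrial ribosomal RNA mt-Rnr1 had 8372, 26015 and 2489 CPM in the ataxin-3 line wild types, against 2434, 2461 and 2195 CPM in the knockout line wild types. Libraries 1 and 2 thus held more reads of ribosomal RNA than library 3, which lay close to the knockout line in these 3 measures. Malat1, a nuclear RNA, had 572, 677 and 178 CPM in the ataxin-3 line wild types, against 141, 205 and 266 CPM in the knockout line wild types.

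A second difference between libraries crossed the lines. Summed over 17 cerebellar marker genes, the level was 866, 857 and 2772 CPM in the ataxin-3 line wild types, against 2298, 2219.6 and 992 CPM in the knockout line wild types. Gabra6, a GABA receptor subunit of cerebellar granule cells, had 12.4, 11.9 and 139 CPM in the ataxin-3 line wild types, against 79.0, 87.9 and 16.2 CPM in the knockout line wild types. Cerebellar transcripts were therefore high in 1 ataxin-3 line library and 2 knockout line libraries. The same library 3 of the ataxin-3 line was low in choroid plexus genes, with summed levels of 2573, 3067 and 1267 CPM in the ataxin-3 line wild types, against 2551, 2438 and 2929.9 CPM in the knockout line wild types. In bulk tissue, fewer cells of a type and less RNA per cell cannot be told apart.

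**Figure D1:**
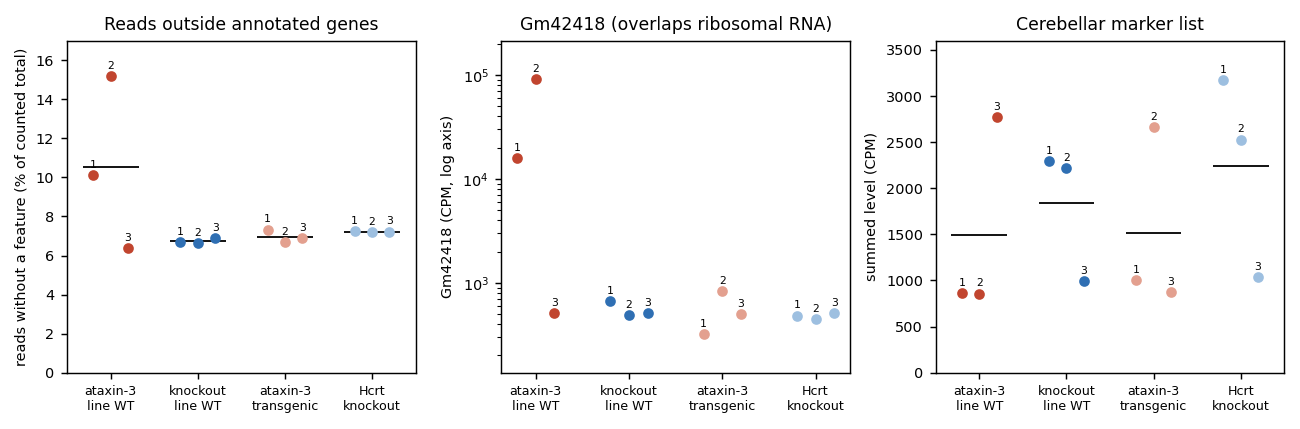
Each of the 12 brainstem libraries is a numbered point: left, reads without a feature as a percentage of the counted total; middle, Gm42418 in CPM on a log axis; right, the summed CPM of 17 cerebellar markers. Bars are means of 3 libraries. Libraries 1 and 2 of the ataxin-3 line wild type lie above all others in the first 2 panels, while for the cerebellar markers each group holds both high and low libraries.

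No gene was called between the wild types. Of 16493 genes tested, 0 passed in either direction (0.0% called), the smallest adjusted p was 0.15, and 1238 genes were higher and 1213 lower in the ataxin-3 line at an unadjusted p under 0.05 (7.51% and 7.35%). The same share at p under 0.05, both directions together, was 14.9% between the brainstem wild types, 3.67% between the brainstem mutants, 3.26% between the cortex wild types and 2.29% between the hypothalamus wild types. DESeq2 on the same counts called 153 genes higher and 137 lower (0.928% and 0.831%). Without library 3 of the ataxin-3 line wild type, edgeR called 476 higher and 701 lower (2.86% and 4.2%), and 260 of the 290 DESeq2 calls were among these 1177. Without libraries 1 and 2, chosen to be left out after the data were seen, it called 4 and 3 (0.0235% and 0.0177%), with a single library then standing for the line and assumed to vary like the others. The number of calls thus turned on which libraries of the ataxin-3 line were kept, and the part of library state in the differences below was not tested beyond the values given. Of the 2451 genes at p under 0.05, 2364 kept their sign without libraries 1 and 2. They were picked for a small p with library 3 and the same knockout line libraries in the contrast. The kept signs therefore follow largely from that choice.

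The genes lowest in p on the lower side spanned electron transfer, cold response, immune cells and translation. Etfb, the beta subunit of the electron transfer flavoprotein of mitochondria, had 24.6, 21.9 and 28.1 CPM in the ataxin-3 line wild types, against 32.1, 35.7 and 37.3 CPM in the knockout line wild types. The difference was -0.49 (SE 0.08, edgeR adjusted p = 0.15). All 3 ataxin-3 line libraries lay below all 3 of the knockout line. The transgenic brainstems had 30.2, 32.4 and 33.4 CPM and the knockout brainstems 31.0, 33.8 and 32.8 CPM, so the mutants overlapped. Nudt9, an ADP-ribose hydrolase, differed by -0.36 (SE 0.07, edgeR adjusted p = 0.16). Vamp8, a SNARE protein of endosomes, differed by -0.58 (SE 0.12, edgeR adjusted p = 0.16), and Lysmd4 by -0.36 (SE 0.07). The libraries of the lines were apart for each of these as well, as they were on the lower side for 7.11% of all tested genes. These genes were picked for a small p in the same libraries, so the separation follows largely from that choice.

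On the higher side the smallest p belonged to Ano3, a membrane protein of the anoctamin family. It had 84.3, 75.5 and 73.5 CPM in the ataxin-3 line wild types, against 63.5, 57.6 and 59.8 CPM in the knockout line wild types, a difference of 0.37 (SE 0.06, edgeR adjusted p = 0.15). Its transgenic brainstems had 67.9, 65.0 and 68.1 CPM, against 63.1, 55.6 and 56.3 CPM in knockout brainstems, so that the gap between the mutants was smaller. Aspn (asporin), an extracellular matrix proteoglycan, had 2.61, 2.04 and 2.61 CPM in the ataxin-3 line wild types, against 1.28, 1.42 and 1.35 CPM in the knockout line wild types, a difference of 0.86 (SE 0.16, edgeR adjusted p = 0.16). Hook3, a dynein adaptor, differed by 0.36 (SE 0.07). The inositol transporter Slc2a13 differed by 0.29 (SE 0.06), the dynactin subunit Dctn4 by 0.22 (SE 0.05), Ubn2 by 0.39 (SE 0.08), Tsc22d2 by 0.28 (SE 0.06) and the Mediator subunit Med14 by 0.26 (SE 0.06). The identifiers ENSMUSG00000097225 and ENSMUSG00000089788, which the annotation used here does not pair with a name, differed by 0.80 (SE 0.16) and 0.69 (SE 0.14). Ano3, Aspn, Lysmd4 and Hook3 overlap genes on the opposite strand (Muc15, Cenpp, Mef2a and predicted genes), so their levels are uncertain if the counting ignored strand. None of the 10 higher genes passed edgeR's threshold, while DESeq2 called 11 of the 20 genes named for a small p, 10 in each direction. All 10 higher genes had non-overlapping libraries, which held on the higher side for 8.17% of all tested genes. They too were picked for a small p in these libraries, so the separation is no support of its own.

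Genes of the cytosolic ribosome lay below the knockout line almost without exception. All 24 tested members of the ribosomal protein list had negative values, 16 of them at an unadjusted p under 0.05 (7.35% of all tested genes were lower so). The median was -0.24, against 0.00 over all tested genes. Of the 24, edgeR called 0 and DESeq2 called 7 lower. Rpl8, of the large subunit, had 168, 183 and 211 CPM in the ataxin-3 line wild types, against 220.3, 245 and 257 CPM in the knockout line wild types (-0.36, SE 0.07, edgeR adjusted p = 0.16). Rps18, of the small subunit, had 57.4, 56.5 and 77.0 CPM in the ataxin-3 line wild types, against 82.4, 88.4 and 92.4 CPM in the knockout line wild types (-0.46, SE 0.10, edgeR adjusted p = 0.16). In both genes library 3 of the ataxin-3 line was the closest to the knockout line. Rps9 differed by -0.35 (SE 0.07), Rps3 by -0.42 (SE 0.10) and Rps21 by -0.31 (SE 0.08), none past edgeR's threshold.

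Taking every annotated cytosolic ribosomal protein gene, 78 of 81 lay below 0, with a median of -0.21, and DESeq2 called 21 of them lower. Against the mean of the knockout line wild types, the median deviation of these 81 genes was -0.26, -0.38 and -0.03 in ataxin-3 line wild types 1, 2 and 3, against -0.03, 0.07 and -0.05 in those of the knockout line. Libraries 1 and 2, which carried the ribosomal RNA reads, were low, and library 3 was not. Without these 2 libraries the median of the 81 was -0.04, between the mutants -0.06, between the cortex wild types 0.00 and between the hypothalamus wild types 0.05.

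Ribosomal protein messenger RNAs carry a 5′ terminal oligopyrimidine tract, a run of C and T at their start through which their translation is controlled together. The start regions of Rps9 and Rps18 are printed since these 2 genes stand among the lowest and their tracts can be read. Each runs from 250 bases before to 50 bases after the RefSeq start, on GRCm38.p6, with the longest pyrimidine run between 10 bases before and 20 bases after the start in capitals. Rps9 lies at chr7:3703791-3704090 on the plus strand and Rps18 at chr17:33955616-33955915 on the minus strand.
Rps9: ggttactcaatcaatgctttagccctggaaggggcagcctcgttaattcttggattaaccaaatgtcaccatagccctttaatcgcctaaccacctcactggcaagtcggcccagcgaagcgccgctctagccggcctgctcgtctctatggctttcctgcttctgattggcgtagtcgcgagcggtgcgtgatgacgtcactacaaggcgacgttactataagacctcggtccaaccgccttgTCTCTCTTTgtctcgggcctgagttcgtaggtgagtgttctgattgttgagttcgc
Rps18: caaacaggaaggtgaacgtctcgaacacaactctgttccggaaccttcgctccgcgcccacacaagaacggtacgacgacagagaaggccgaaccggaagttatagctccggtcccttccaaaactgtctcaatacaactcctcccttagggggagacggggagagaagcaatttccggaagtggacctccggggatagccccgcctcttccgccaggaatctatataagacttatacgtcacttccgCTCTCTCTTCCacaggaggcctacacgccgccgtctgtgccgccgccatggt
The run has 9 bases in Rps9 and 11 in Rps18. A run of at least 8 pyrimidines (C or T in any order, on the strand of the gene) stood in this stretch in 22 of 64 ribosomal protein genes with a sequence (34.4%) and in 3021 of 27025 genes (11.2%). Rpl8 and Rbm3 were not among the start regions used here.

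Nuclear genes of the respiratory chain lay on the same side. Of 20 tested list members, 19 were below 0 and 13 were lower at an unadjusted p under 0.05 (7.35% of all tested genes), with a median of -0.23. Of the 20, edgeR called 0 and DESeq2 called 7 lower. Cox4i1, a subunit of cytochrome c oxidase, had 353, 337 and 458 CPM in the ataxin-3 line wild types, against 479.5, 489 and 516 CPM in the knockout line wild types (-0.37, SE 0.09, edgeR adjusted p = 0.16). Cox5b, of the same complex, differed by -0.34 (SE 0.08), the complex I subunit Ndufs6 by -0.31 (SE 0.08) and the complex III subunit Uqcr11 by -0.38 (SE 0.10). Over 81 genes with respiratory chain symbols the median deviation was -0.21, -0.27 and -0.02 in ataxin-3 line wild types 1, 2 and 3, against -0.01, 0.05 and -0.04 in those of the knockout line. As with the ribosome, library 3 did not share it. The 8 listed genes read from the mitochondrial genome itself had a median of 0.05, with none at p under 0.05.

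Over the whole table the difference followed the genomic span of the gene. Genes were split into 10 equal groups by their genomic span, with the shortest group at up to 3.83 kb and the longest from 133 kb on. The median difference was -0.075 in the shortest group and 0.078 in the longest, and it increased at every step between. At an unadjusted p under 0.05, 13.1% of the shortest group were lower and 3.06% higher, while of the longest group 0.674% were lower and 18.9% higher. Without libraries 1 and 2 of the ataxin-3 line the ends were -0.031 and 0.033, between the mutants -0.032 and 0.029, and between the cortex wild types -0.001 and 0.007. In hypothalamus they were 0.019 and -0.015, with the order turned round.

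**Figure D2:**
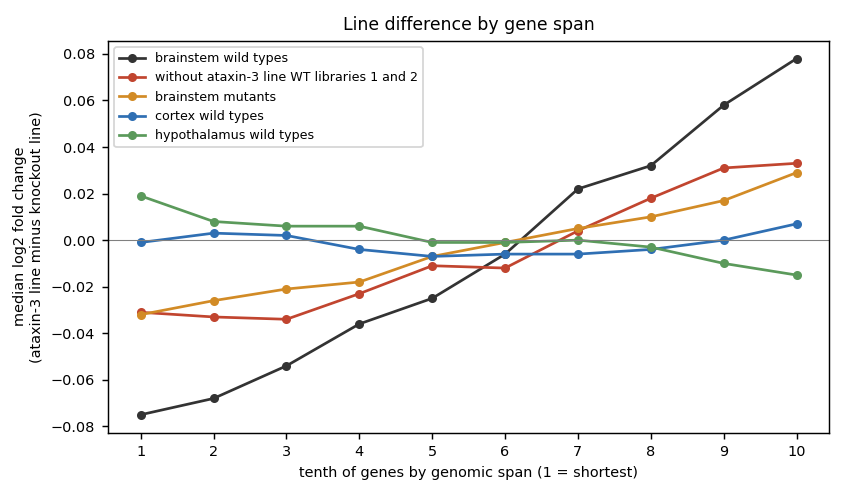
The median log2 fold change of the ataxin-3 line over the knockout line is plotted for 10 equal groups of the tested genes by genomic span, from the shortest (1) to the longest (10), in 5 contrasts. The brainstem wild types run from -0.075 to 0.078, a wider course than in the other 4 lines, and leaving out libraries 1 and 2 of the ataxin-3 line narrows it to -0.031 and 0.033.

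The cold-inducible RNA-binding proteins Cirbp and Rbm3, which are raised by mild cooling and shape messenger RNA processing, were both lower in the ataxin-3 line. Rbm3 had 39.4, 35.4 and 41.8 CPM in the ataxin-3 line wild types, against 47.4, 54.6 and 55.8 CPM in the knockout line wild types (-0.43, SE 0.08, edgeR adjusted p = 0.15). Cirbp had 34.4, 39.2 and 42.7 CPM in the ataxin-3 line wild types, against 45.4, 50.8 and 52.4 CPM in the knockout line wild types (-0.35, SE 0.07, edgeR adjusted p = 0.16). In both the lines did not overlap, as held on the lower side for 7.11% of all tested genes, and DESeq2 called both lower. The mutants, which share no library with the wild types, lay the same way. Rbm3 had 42.2, 46.1 and 45.2 CPM in transgenic brainstems, against 62.2, 58.3 and 53.4 CPM in knockout brainstems (-0.38, edgeR adjusted p = 0.091), and for Cirbp the difference was -0.25 (edgeR adjusted p = 0.95). Without libraries 1 and 2 the wild type values were -0.34 for Rbm3 and -0.22 for Cirbp. In cortex the lines overlapped for both genes, with differences of -0.05 for Rbm3 and -0.11 for Cirbp between wild types. In hypothalamus these were -0.23 and -0.14, and the wild types overlapped for Rbm3 but not for Cirbp, at 78.3 to 89.6 CPM in the ataxin-3 line and 91.3 to 97.1 CPM in the knockout line. None of these 4 differences was called by edgeR (adjusted p = 1.0 each). Rbm3 lies on chromosome X at 8138975 to 8145880, with Rbm3os on the opposite strand, so its level is uncertain if the counting ignored strand.

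The start region of Cirbp is shown because the octamer TCCCCGCC has been described as a mild-cold responsive element of the mouse gene. It lies at chr10:80167589-80167888 on the plus strand, with the octamer in capitals, in the window of 250 bases before to 50 after the RefSeq start on GRCm38.p6.
Cirbp: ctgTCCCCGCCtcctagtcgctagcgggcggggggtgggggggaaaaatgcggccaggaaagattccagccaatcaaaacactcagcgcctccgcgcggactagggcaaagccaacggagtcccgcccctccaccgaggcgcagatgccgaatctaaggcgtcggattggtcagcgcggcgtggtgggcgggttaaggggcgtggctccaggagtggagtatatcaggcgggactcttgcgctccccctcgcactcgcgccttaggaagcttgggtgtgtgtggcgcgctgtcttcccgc
The octamer was found once, and on either strand it was present in 1473 of 27025 start regions (5.45%). A match of letters is a description and does not show that the element was in use.

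**Figure D3:**
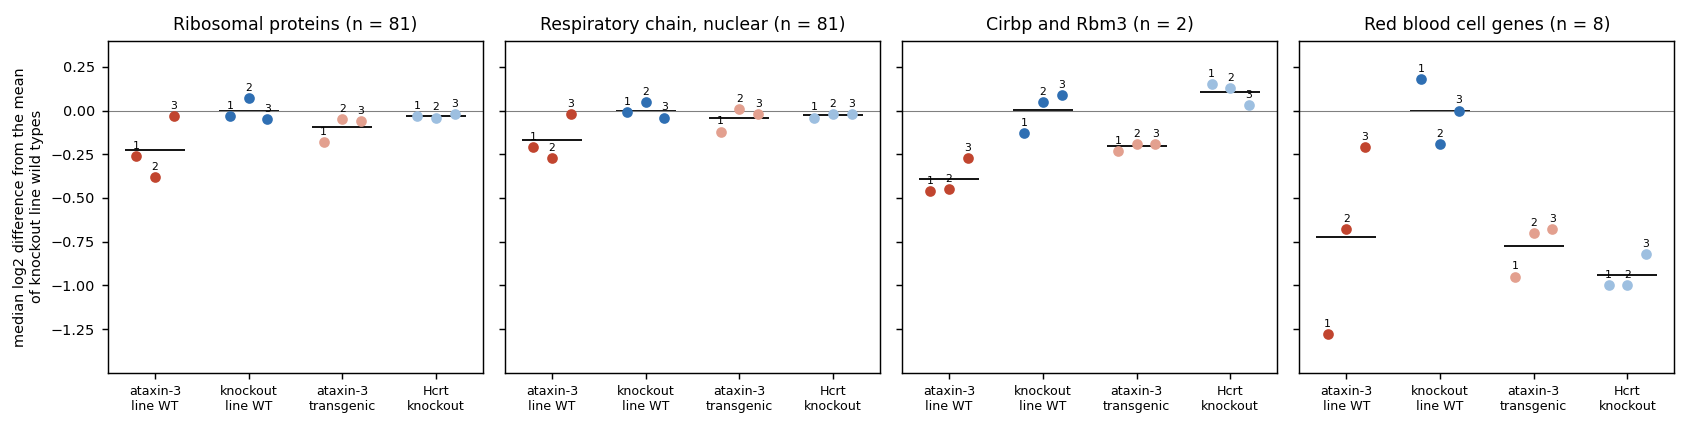
Each numbered point is a brainstem library, and its height is the median, over the tested genes of a list, of the log2 difference from the mean of the knockout line wild types; bars are means of 3 libraries. For ribosomal and respiratory chain genes libraries 1 and 2 of the ataxin-3 line wild type lie lowest, at -0.21 to -0.38, while for Cirbp and Rbm3 all 3 are low, at -0.46, -0.45 and -0.27, and for red blood cell genes the knockout line wild types are the highest group.

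Red blood cell genes were lower in the ataxin-3 line wild types, with a median of -0.68 over 8 tested genes. Of the 8, 5 were lower at an unadjusted p under 0.05 (7.35% of all tested genes). Hbb-bs, adult beta globin, had 113, 179 and 287 CPM in the ataxin-3 line wild types, against 393, 298 and 332 CPM in the knockout line wild types (-0.82, SE 0.30, edgeR adjusted p = 0.27). Transgenic brainstems had 155, 208 and 183 CPM, and knockout brainstems 172, 168 and 197 CPM. It was thus the knockout line wild types that were high among the 4 groups, and library 3 of the ataxin-3 line lay nearest to them. Hbb-bt differed by -0.86 (SE 0.26), Hba-a2 by -0.68 (SE 0.25), and Alas2, the erythroid enzyme of heme synthesis, by -0.68 (SE 0.22). Without libraries 1 and 2 of the ataxin-3 line the list's median was -0.25, and without library 3 it was -1.02. Globin genes have near-identical copies, so their levels are less certain than those of single-copy genes.

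Antigen presentation genes were lower as well, with 12 of 13 tested members below 0 and a median of -0.23. Of the 13, 6 were lower at an unadjusted p under 0.05 (7.35% of all tested genes). Tap2, of the peptide transporter that loads class I molecules, had 8.28, 9.67 and 9.28 CPM in the ataxin-3 line wild types, against 11, 12 and 12 CPM in the knockout line wild types (-0.36, SE 0.09, edgeR adjusted p = 0.16). Its partner Tap1 differed by -0.43 (SE 0.15), the class I gene H2-T23 by -0.32 (SE 0.10) and the class I heavy chain H2-D1 by -0.23 (SE 0.09). The median was -0.32 without libraries 1 and 2 and also -0.32 without library 3, so the direction held with either left out. Against the mean of the knockout line wild types, the list's median deviation was -0.30, -0.14 and -0.30 in the ataxin-3 line wild types. In the knockout line wild types it was -0.12, 0.27 and -0.01, with library 2 the highest and library 1 close to the ataxin-3 line. No list median was taken without library 1 or library 2 of the knockout line. Between the mutants the list's median difference was -0.08, and Tap2 differed by 0.01 there.

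Aif1, which encodes the microglial protein Iba1 and lies in the same complex at 35170991 to 35176068 on chromosome 17, had 0.945, 0.732 and 1.40 CPM in the ataxin-3 line wild types, against 2.81, 3.48 and 2.31 CPM in the knockout line wild types. The difference was -1.41 (SE 0.25, edgeR adjusted p = 0.15), and between mutants -0.78 (SE 0.23, edgeR adjusted p = 0.97). The microglial list as a whole had 10 of 12 members below 0 with a median of -0.11, and its summed level was 403, 419 and 423 CPM in the ataxin-3 line wild types, against 409, 444 and 437 CPM in the knockout line wild types. The value of Aif1 was the lowest of the list, whose other members lay between -0.25 and 0.13. Without libraries 1 and 2 the median of the list was -0.08.

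Genes of glutamate, glycine and GABA transmission lay mostly on the higher side, while those of the synaptic vesicle had a median of 0.02. Of 12 glutamate list genes, 9 were above 0 and 4 were higher at an unadjusted p under 0.05 (7.51% of all tested genes), with a median of 0.14. Without library 1 of the ataxin-3 line the 4 became 2, and between the mutants the median was -0.01. Grm5, a metabotropic glutamate receptor, had 94.2, 88.2 and 76.9 CPM in the ataxin-3 line wild types, against 67.5, 63.2 and 75.5 CPM in the knockout line wild types (0.33, SE 0.08, edgeR adjusted p = 0.17). The AMPA receptor subunits Gria3 and Gria2 differed by 0.18 (SE 0.06) and 0.17 (SE 0.07). Of 12 genes for glycine and GABA transmission, 11 were above 0 and 5 had an unadjusted p under 0.05, with a median of 0.15. Without library 1 the 5 became 1, and without libraries 1 and 2 the median was 0.07. Glrb, the beta subunit of the glycine receptor, had 604, 534 and 537 CPM in the ataxin-3 line wild types, against 513, 487 and 477 CPM in the knockout line wild types (0.18, SE 0.06, edgeR adjusted p = 0.19). Gabra5 and Glra3 differed by 0.20 (SE 0.07) and 0.27 (SE 0.11). Of 16 synaptic vesicle genes, 12 were above 0 and 1 was higher at an unadjusted p under 0.05. In these 3 lists edgeR called 0 genes, and DESeq2 called 2 glutamate genes and 1 glycine or GABA gene higher. Grm5, Gria3 and Glra3 belong to the longest group by genomic span, from 133 kb on. Gria2 and Gabra5 belong to the group of 73.4 to 133 kb, and Glrb to that of 46.9 to 73.3 kb. Over all tested genes of the longest group the median was 0.078, with 18.9% higher and 0.674% lower at an unadjusted p under 0.05. In the groups of Gria2 and Glrb the medians were 0.058 and 0.032. At such a p, 17.1% and 12.2% of their genes were higher and 2.45% and 3.06% lower. The part of gene span in the list medians was not tested.

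Potassium channel genes had 14 of 18 members above 0 and 5 higher at an unadjusted p under 0.05 (7.51% of all tested genes), with a median of 0.08. Kcnh7, of the ERG family, differed by 0.45 (SE 0.13), but its ataxin-3 line libraries at 79.1, 66.0 and 52.7 CPM overlapped those of the knockout line at 49.4, 41.9 and 52.7 CPM. The inward rectifiers Kcnj3 and Kcnj6 differed by 0.20 (SE 0.06) and 0.32 (SE 0.11), and Kcna1 by 0.22 (SE 0.08). Kcnh7, Kcnj3 and Kcnj6 also belong to the longest group by genomic span, from 133 kb on, while Kcna1 does not. The part of gene span in the potassium channel median was not tested. Myelin genes had 9 of 15 members above 0 and 3 higher at an unadjusted p under 0.05 (7.51% of all tested genes). Their median was 0.10, which was 0.05 without library 2 of the ataxin-3 line and 0.02 without libraries 1 and 2. Between the cortex wild types the same list lay the other way, with a median of -0.22 and 12 of 15 lower at an unadjusted p under 0.05. In cortex 3.26% of all tested genes had such a p in either direction. Ugt8a, which makes the galactolipid of myelin, had 308, 284 and 278 CPM in the ataxin-3 line wild types, against 263, 236 and 243 CPM in the knockout line wild types (0.23, SE 0.06, edgeR adjusted p = 0.17). Between the mutants it differed by 0.25 (edgeR adjusted p = 0.42). Aspa, Cldn11 and Fa2h differed by 0.17 (SE 0.06), 0.14 (SE 0.06) and 0.17 (SE 0.08). DESeq2 called 1 gene higher in each of these 2 lists, and edgeR called 0.

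The nuclei that hypocretin axons reach were marked by lists for monoamine and acetylcholine neurons, none of which held a call. Of 9 serotonin genes, 1 was higher and 0 lower at an unadjusted p under 0.05, with a median of -0.09 and a summed level of 276, 278 and 217 CPM in the ataxin-3 line wild types, against 233, 233 and 243 CPM in the knockout line wild types. The higher gene was the serotonin receptor Htr2c at 0.21, so the sum is not one of serotonin neurons alone. Of the 9, 3 lay above 0 and 6 below, the latter with Tph2 at -0.09, Slc6a4 at -0.21 and Fev at -0.35. Of 10 catecholamine genes 0 had such a p, with a median of -0.01 and summed levels of 223, 238 and 211 CPM in the ataxin-3 line wild types, against 228, 231 and 214 CPM in the knockout line wild types. Of 7 cholinergic genes 1 was lower, with a median of -0.03. At such a p, 7.51% of all tested genes were higher and 7.35% lower. The summed levels of the lines overlapped for the serotonin and catecholamine lists.

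The genes of the hypocretin system itself were not called between the wild types. Hcrt had 5, 4 and 2 counts in the ataxin-3 line wild types, against 5, 0 and 2 counts in the knockout line wild types, where a count of 0 allows up to 3 counts, or 0.09 unscaled CPM. In the mutants, transgenic brainstems had 1, 1 and 1 counts and knockout brainstems 29, 27 and 42 counts, more than in either wild type, and gene counts do not show which part of the gene was read. In hypothalamus, where the neurons lie, transgenic mice had 2.28 to 2.60 CPM against 192, 107 and 209 CPM in their wild types, and knockout mice had 1.06 to 1.23 CPM against 86.9, 54.1 and 60.1 CPM in theirs. Hcrtr1 differed by 0.04 (SE 0.12, edgeR adjusted p = 0.93). Hcrtr2 had 16.8, 15.7 and 14.4 CPM in the ataxin-3 line wild types, against 13.6, 12.1 and 13.5 CPM in the knockout line wild types (0.26, SE 0.09, edgeR adjusted p = 0.22). Atxn3, the endogenous ataxin-3 gene, had 36.9, 30.7 and 32.5 CPM in the ataxin-3 line wild types, against 30.3, 29.8 and 29.2 CPM in the knockout line wild types (0.17, SE 0.07, edgeR adjusted p = 0.28). The lines were apart for Hcrtr2 and Atxn3, as they were on the higher side for 8.17% of all tested genes, and neither was called.

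A list of genes with variants between mouse strains or substrains gave little at the level of RNA. Gene counts do not read the variants themselves. Nnt, the nicotinamide nucleotide transhydrogenase that is deleted in part in C57BL/6J, had a mean of 20.9 ± 1.52 CPM in the ataxin-3 line wild types and 20.4 ± 0.598 CPM in the knockout line wild types (SD, n = 3 each), a difference of 0.03 (SE 0.07). Wdfy1 differed by 0.06 (SE 0.07), Cyfip2 by 0.08 (SE 0.05), Crb1 by 0.23 (SE 0.18), Disc1 by -0.16 (SE 0.22), Gria4 by -0.02 (SE 0.15), Kcnj9 by -0.20 (SE 0.14) and Cenpc1 by 0.03 (SE 0.07). Gabra2, a GABA receptor subunit with an intronic variant in C57BL/6J, had 28.9 ± 2.70 CPM in the ataxin-3 line wild types and 24.8 ± 1.47 CPM in the knockout line wild types (SD, n = 3 each), a difference of 0.22 (SE 0.08, edgeR adjusted p = 0.22). It was the only one of the 10 tested list members whose lines did not overlap. Over all tested genes the lines were apart for 8.17% on the higher side and 7.11% on the lower. No member was called, and Entpd4, of the same list, had 0 counts in all 6 libraries.

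A few genes chosen after their values were seen lay the same way between the lines in mutants and in other tissues. None was called by the main fits between the wild types of any single tissue. Chl1, a cell adhesion molecule of the L1 family that guides axons, had 160.0, 136 and 156 CPM in the ataxin-3 line wild types, against 67.8, 93.1 and 24.9 CPM in the knockout line wild types. The difference was 1.29 (SE 0.38, edgeR adjusted p = 0.21), and without library 3 of the knockout line it was 0.91 and the only call (edgeR adjusted p = 0.022). Over wild types and mutants together, the ataxin-3 line lay at 135 to 160.0 CPM and the knockout line at 24.9 to 93.1 CPM. In cortex the ranges were 140.3 to 199 CPM in the ataxin-3 line and 30.4 to 110.4 CPM in the knockout line, and in hypothalamus 286 to 319.5 CPM in the ataxin-3 line and 61.5 to 211 CPM in the knockout line. The lines did not overlap in any of the 3 tissues. Between the brainstem wild types, such a separation on the higher side held for 8.17% of all tested genes. No such share was taken for cortex or hypothalamus, and Chl1 was chosen with its values known. Within the knockout line wild types the order was library 2, then 1, then 3 in each tissue, with 110.4, 89.6 and 30.4 CPM in cortex and 211, 135 and 61.5 CPM in hypothalamus for libraries 2, 1 and 3. Chl1 lies on chromosome 6 at 103510586 to 103750211 and overlaps predicted genes on both strands.

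Ide, the insulin-degrading enzyme, had 71.8, 91.4 and 86.4 CPM in the ataxin-3 line wild types, against 112, 132 and 97.0 CPM in the knockout line wild types (-0.45, SE 0.12, edgeR adjusted p = 0.18). Its neighbours on chromosome 19 behaved alike. Btaf1, a remodeller that removes TBP from DNA, differed by -0.28 (SE 0.09, edgeR adjusted p = 0.19), and Fgfbp3, a binding protein of fibroblast growth factors, by -0.51 (SE 0.19, edgeR adjusted p = 0.24). The 3 genes lie between 36917550 and 37337852, and copy-number variation of Ide and Fgfbp3 has been reported within C57BL/6J. In the wild types the lines were apart for all 3 genes in all 3 tissues. In brainstem this held on the lower side for 7.11% of all tested genes, and no such share was taken for cortex or hypothalamus. The 3 genes were added with their values known, so the separation is no support of its own. With mutants included, the lines overlapped for Btaf1 in hypothalamus, at 27.5 to 43.0 CPM in the ataxin-3 line and 32.9 to 53.6 CPM in the knockout line. They also overlapped for Fgfbp3 in cortex, at 3.35 to 7.09 CPM in the ataxin-3 line and 6.16 to 8.11 CPM in the knockout line. Between the brainstem mutants, Btaf1 was called at -0.69 (SE 0.09, edgeR adjusted p = 0.0012).

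Another group sits at the boundary where X and Y share sequence. Gm47283, a predicted gene placed on Y at 90784738 to 90816464, had 1.85, 2.51 and 1.35 CPM in the ataxin-3 line wild types, against 4.45, 3.42 and 5.55 CPM in the knockout line wild types (-1.29, SE 0.23, edgeR adjusted p = 0.15). Mid1, a ubiquitin ligase that spans the boundary on X, differed by -0.60 (SE 0.21, edgeR adjusted p = 0.21). G530011O06Rik, which lies inside Mid1 on the other strand, differed by -0.98 (SE 0.28, edgeR adjusted p = 0.18). Between the mutants Gm47283 was called at -1.63 (SE 0.21, edgeR adjusted p = 0.0023). The brainstem lines did not overlap for any of the 3, while in cortex the wild types overlapped for Gm47283, at 5.96 to 8.32 CPM in the ataxin-3 line and 7.95 to 16.2 CPM in the knockout line. On the lower side the brainstem wild types were apart for 7.11% of all tested genes, and these 3 were picked from their values. Mid1 and G530011O06Rik overlap, and reads from shared sequence may fall to either copy, so these levels are uncertain.

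**Figure D4:**
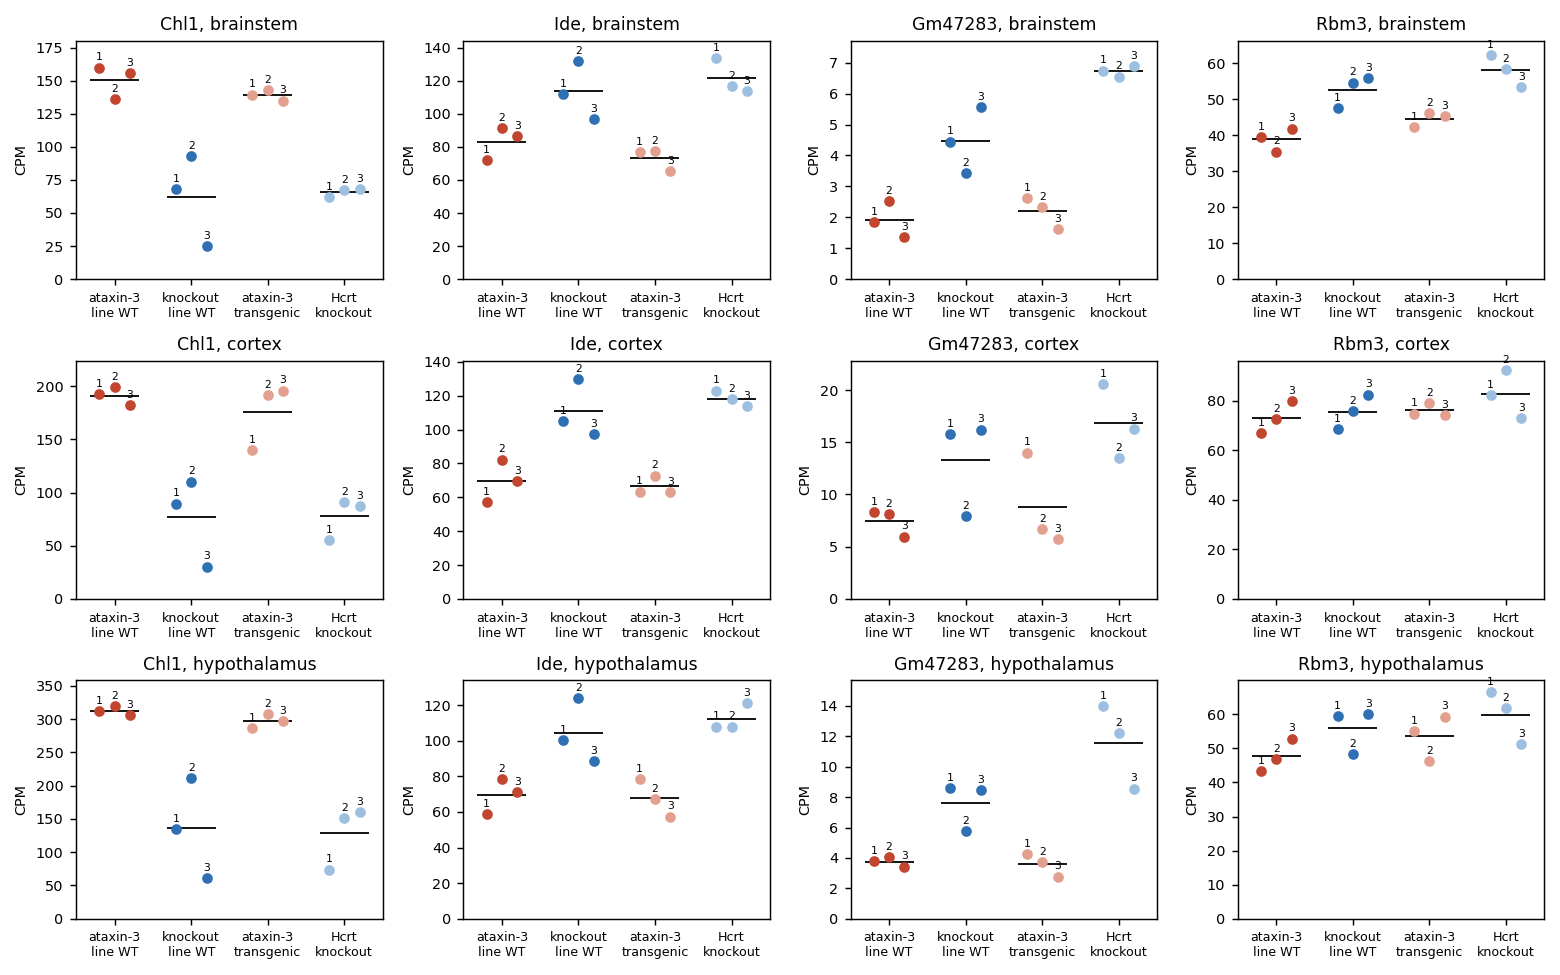
Chl1, Ide, Gm47283 and Rbm3 are plotted in CPM for every library of the 4 genotypes in brainstem, cortex and hypothalamus, with library numbers and bars at the mean of 3. Chl1 is higher and Ide lower in the ataxin-3 line in each tissue with no overlap between lines, at 71.8 to 91.4 against 97.0 to 132 CPM for Ide in the brainstem wild types, whereas Rbm3 separates the lines in brainstem and overlaps in cortex and hypothalamus.

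A fit of all 36 libraries, added after the data were seen, averaged the wild type line difference over cortex and hypothalamus. The brainstem libraries were left out of this contrast but entered the fit's filter and its estimate of spread. The fit treats libraries of different tissues as independent. The labels do not say whether same-numbered libraries of different tissues came from 1 animal, so the tissues may share their 3 animals per group, and the values below are set beside those of brainstem and not taken as separate evidence. Like Chl1 in the knockout line wild types, Ide kept its order of libraries in all 3 tissues, with 57.3, 82.3 and 69.4 CPM in cortex of the ataxin-3 line wild types 1, 2 and 3, against 105, 129.9 and 97.5 CPM in cortex of the knockout line wild types. Of 17744 genes it called 3 (0.0169%), namely Ide at -0.63 (SE 0.10, edgeR adjusted p = 0.017), G530011O06Rik at -0.97 (SE 0.18, edgeR adjusted p = 0.041) and the complement component C4b at -0.48 (SE 0.09, edgeR adjusted p = 0.041). In brainstem Ide and G530011O06Rik lay the same way, at -0.45 and -0.98. C4b did not, with 24.3 ± 5.34 CPM in the ataxin-3 line wild types and 23.8 ± 3.19 CPM in the knockout line wild types (SD, n = 3 each) and a difference of 0.02 (SE 0.16). In hypothalamus C4b had 26.5 ± 2.71 CPM in the ataxin-3 line wild types and 41.2 ± 4.39 CPM in the knockout line wild types (SD, n = 3 each). The difference between brainstem and hypothalamus, 0.67 (SE 0.17), was not called (edgeR adjusted p = 0.38).

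The contrast between the mutants of the lines asks which line differences remain when each line carries its modification. It called 16 genes (0.0970% of 16493), 9 higher and 7 lower in the transgenic brainstem. Of these, 10 lie on chromosome 11, where Hcrt is. None of the 10 had an unadjusted p under 0.05 between the wild types, where 14.9% of all tested genes had one. Adam11, a catalytically inactive metalloprotease of neurons, had 92.6, 96.9 and 89.5 CPM in transgenic brainstems, against 159, 187 and 160.1 CPM in knockout brainstems (-0.86, SE 0.08, edgeR adjusted p = 0.00024). Between the wild types it had 80.3, 103 and 86.0 CPM in the ataxin-3 line and 92.0, 90.6 and 99.5 CPM in the knockout line (-0.07, SE 0.09). The knockout line wild type thus lay with the ataxin-3 line, and the knockout stood alone. The difference between the wild type and mutant contrasts, 0.79 (SE 0.12), had an edgeR adjusted p of 0.059.

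The other chromosome 11 genes had the same form. Stac2 differed by 0.67 between mutants and 0.09 between wild types, Fkbp10 by 0.67 and -0.11, Ghdc, the direct neighbour of Hcrt, by 0.55 and -0.12, Med1 by -0.34 and 0.10, and Arhgap27 by 0.43 and 0.00. The low-count C130046K22Rik, Gm11642 and Gm11940 differed by 2.32, 1.42 and -4.12 between mutants, and by -0.07, -0.28 and -0.32 between wild types. Hcrt differed by -5.09 (SE 0.56, edgeR adjusted p = 0.00047) between mutants and by 1.05 (SE 0.74, edgeR adjusted p = 0.54) between wild types. Over the 325 tested genes within 10 Mb of Hcrt, the median difference between wild types was -0.04, with 120 values above 0 and 205 below. At an unadjusted p under 0.05, 10 of the 325 were higher and 17 lower. Over all 16493 tested genes, 8144 values were above 0 and 8349 below, with 7.51% higher and 7.35% lower at such a p.

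The 6 genes called between mutants that lie elsewhere were Btaf1, Gm47283, Igha, Ighm, Cenpc1 and Mon2. All 6 had the same sign between the wild types, 4 of them at an unadjusted p under 0.05, against 14.9% of all tested genes in either direction. Igha, the constant region of IgA, had 3, 5 and 4 counts in the ataxin-3 line wild types, against 16, 21 and 34 counts in the knockout line wild types (-2.09, SE 0.42, edgeR adjusted p = 0.16). Between mutants it differed by -2.71 (SE 0.41, edgeR adjusted p = 0.0079). Mon2, a scaffold of Golgi trafficking, differed by 0.33 (SE 0.06) between mutants and 0.16 (SE 0.06) between wild types. Cenpc1, a centromere protein, differed by 0.61 (SE 0.07) between mutants and 0.03 (SE 0.07) between wild types, and Ighm by 0.55 (SE 0.07) and 0.12 (SE 0.07). The sign of Cenpc1 between wild types was not stable, at -0.02 without library 1 of the ataxin-3 line wild type. Cenpc1 had 40.1 ± 0.650 CPM in transgenic brainstems and 27.1 ± 2.86 CPM in their wild types (SD, n = 3 each), a rise of 0.56 (edgeR adjusted p = 0.014), the only call in that contrast (0.00606% of genes). No gene was called for the difference between the wild type and mutant contrasts (0.0% by edgeR), where 783 genes had an unadjusted p under 0.05 (4.75%) and DESeq2 called 16.

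**Figure D5:**
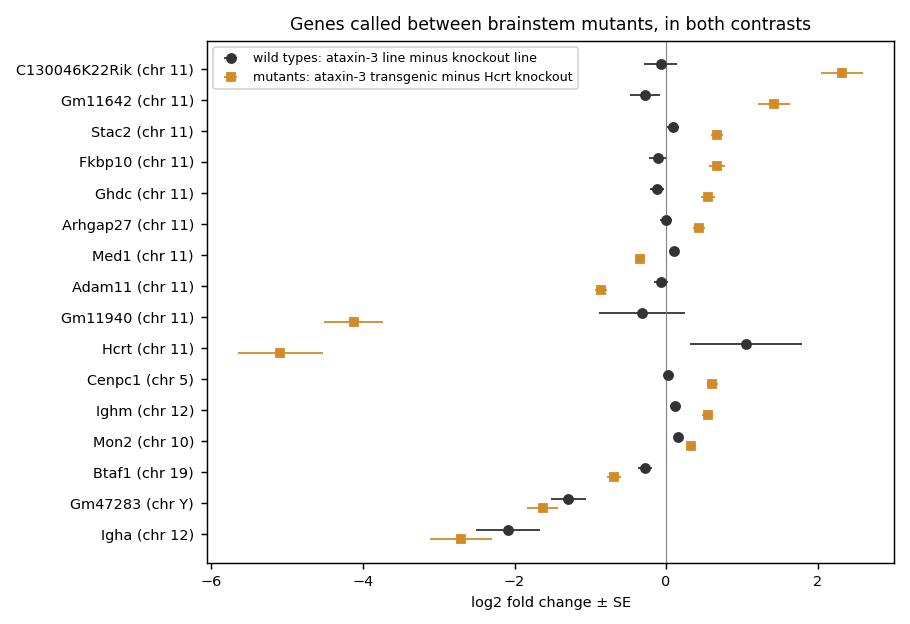
For the 16 genes called between the brainstem mutants, log2 fold changes with SE are shown for the wild types (circles, ataxin-3 line over knockout line) and for the mutants (squares, ataxin-3 transgenic over Hcrt knockout). The 9 chromosome 11 genes other than Hcrt lie between -0.32 and 0.10 in the wild types, while Btaf1, Gm47283 and Igha lie on the same side of 0 in both.

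The line difference of the brainstem was also tested against that of the other tissues. Against cortex edgeR called no gene (0.0% of 17744), 768 had an unadjusted p under 0.05 (4.33%), and DESeq2 called 5. Against hypothalamus 1 gene was called (0.00564%), Ftx, a non-coding RNA of the X inactivation centre, which was named for that reason. Ftx had 10.6, 9.62 and 7.12 CPM in brainstem of the ataxin-3 line, against 6.51, 5.82 and 5.55 CPM in brainstem of the knockout line (0.60, SE 0.14, edgeR adjusted p = 0.16). In hypothalamus it had 11, 10.5 and 12.6 CPM in the ataxin-3 line wild types, against 16.7, 13.3 and 14.5 CPM in the knockout line wild types (-0.39, SE 0.12). The difference of differences was 1.00 (SE 0.17, edgeR adjusted p = 0.038). Ftx overlaps Jpx on the opposite strand and several microRNA genes, and its brainstem level was highest in libraries 1 and 2 of the ataxin-3 line. The call was lost (0 calls) without either of these 2 libraries and without library 2 or library 3 of the knockout line wild type.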

How the data were processed

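RNA of 3 tissues was measured in 36 stranded poly(A) libraries. The authors deposited 1 table of raw counts per library; per the submitters' processing notes, cutadapt 1.2.1, TopHat2 2.0.9 with GRCm38 and HTSeq 0.5.4p3 were used, and the strand setting is not given in the sources used here. Each table held 38924 gene lines, 37607 with a GENCODE M21 symbol and position, and 5 special lines. The special lines, 26.97% to 41.97% of the counted total in brainstem, were left out.

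The 12 brainstem libraries entered 1 fit in edgeR 4.0.16 (R 4.3.3; TMM factors, default filter, robust quasi-likelihood test, Benjamini-Hochberg adjustment), with limma 3.58.1 voom quality weights and DESeq2 1.42.0 as alternatives. The biological coefficient of variation was 9.03%. SEs were derived from the test. A set of 42 gene lists was used, described by counts and medians. List deviations used log2(CPM + 0.5). Promoters came from RefSeq. The edgeR contrast of the brainstem wild types was also run on simulated counts with a common spread for all genes. That simulation held none of the ribosomal RNA, cerebellar or gene span differences described above, so it is no check on them. A floor of 3 counts covers counting error only.

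Named genes were the 10 smallest p per direction, Hcrt, Atxn3 and the receptors, the strain variant list, up to 4 smallest p per described list, and any calls. Genes called between mutants or over cortex and hypothalamus, Chl1, Fgfbp3, Mid1, Ftx, Oxt, Avp and the genes of library state were added after their values were seen. Members and lists were chosen with earlier results of these data known. A few genes of these lists are not reported here.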

Additional observations from a re-analysis of the deposited data

Results flagged for a closer look

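Ftx differed between tissues in its line difference. The ataxin-3 line minus knockout line difference in brainstem wild types exceeded that in hypothalamus by 1.00 on the log2 scale (edgeR adjusted p = 0.038). In brainstem all 3 ataxin-3 line libraries lay above the 3 of the knockout line, and in hypothalamus all 3 lay below. Among all tested genes, 8.17% were apart on the higher side between the brainstem wild types. The call was lost without ataxin-3 line wild type library 1 or 2, which also held the most ribosomal RNA reads, without knockout line wild type library 2 or 3, and with the replicate block. The part of library state in this difference was not tested.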

How the results depend on the processing

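With RLE factors, voom quality weights, a stricter filter (CPM over 1 in 3 libraries) or only the 6 wild type libraries, 0 genes were called between the wild types, as in the main fit. DESeq2 called 153 higher and 137 lower, no filter on low counts 5 and 14, and the share of reads without a feature as a covariate 1 and 1 (Crym higher, Gm47283 lower). Leaving out 1 library gave 0 to 476 higher and 0 to 701 lower, the highest without ataxin-3 line wild type library 3; without its libraries 1 and 2 there were 4 higher (Ddn, Hpcal4, Crym and Ptk2b) and 3 lower (among them Gm15564 and Lars2). The cause of these shifts was not tested. Of such calls, those repeated between mutants numbered 2 with DESeq2, 3 with no filter, 1 with the covariate and 0 to 3 with 1 library left out, and 2 of DESeq2's were repeated in cortex.

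The line difference in brainstem minus cortex had 5 calls with DESeq2 and 0 to 19 with 1 library left out. Brainstem minus hypothalamus had 25 with DESeq2, 0 to 22 with 1 library left out and 3 without libraries 1 and 2. Wild types minus mutants had 16 with DESeq2, 5 with no filter, 0 to 85 with 1 library left out and 4 without libraries 1 and 2. The 3 calls averaged over cortex and hypothalamus became 1 with RLE factors, 13 with DESeq2 and 2 with no filter. Same-numbered brainstem libraries of the 2 wild types did not deviate together (r = -0.097, -0.124 and -0.335), so the numbers were not taken to pair the lines. Across tissues, same-numbered libraries of 1 wild type had r of -0.235 to 0.132 over 18 pairs (median 0.044), against -0.259 to 0.382 over 36 pairs of unlike number (median -0.028), values that do not settle whether the tissues share animals. With the replicate block, 0 genes were called higher and 0 lower between wild types (smallest adjusted p 0.062), and 0 for brainstem minus hypothalamus.

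Of 1251 values of 84 named genes under these alternatives, 1142 kept their direction and side of the threshold, 84 passed it and 25 turned sign. With the covariate these were C130046K22Rik at 0.08, C4b at -0.28, Gm11940 at 0.15, Gria4 at 0.20, Nnt at -0.04 and Stac2 at -0.03. Without libraries 1 and 2 they were C130046K22Rik at 0.16, C4b at -0.39, Crb1 at -0.16, Gm11940 at 0.28, Gria4 at 0.21, Hcrt at -0.19, Hcrtr1 at -0.02, Kcnj9 at 0.06, Nnt at -0.10, Stac2 at -0.04 and Wdfy1 at -0.02. With 1 library left out, 4 genes crossed 0: C4b ranged over -0.10 to 0.20, Cenpc1 over -0.02 to 0.11, Nnt over -0.02 to 0.09 and Gria4 over -0.15 to 0.09. Depth ranged from 21915540 to 38251227 gene counts in the 6 libraries, lowest in ataxin-3 line wild type library 2, and limits genes under 1 CPM such as Igha and Hcrt most.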

Other observations

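Genes of hypothalamic neurons had 8 of 10 tested members above 0, with 2 higher and 0 lower at an unadjusted p under 0.05 (7.51% and 7.35% of all tested genes). The median was 0.42, and it was 0.13 without library 1 of the ataxin-3 line, 0.14 without library 2 and 0.02 without both. Oxt, the peptide hormone oxytocin, had 12, 2 and 4 counts in the ataxin-3 line wild types, against 1, 1 and 0 counts in the knockout line wild types. Avp, the related hormone vasopressin, had 19, 3 and 14 counts in the ataxin-3 line wild types, against 1, 4 and 8 counts in the knockout line wild types. The summed level of the list was 42.0, 41.8 and 28.1 CPM in the ataxin-3 line wild types, against 32.7, 39.2 and 32.5 CPM in the knockout line wild types, and at least 1127 CPM in every hypothalamus library. Of 9 genes of thalamus and midbrain, 2 were higher and 0 lower at such a p, with a median of -0.05. Of 5 immunoglobulin genes, 0 were higher and 2 lower, Igha among them, with a median of -0.02.

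Of 19 circadian clock genes, 3 were higher and 2 lower in the ataxin-3 line at an unadjusted p under 0.05, with a median of 0.02. Among all tested genes, 7.51% were higher and 7.35% lower at such a p, which bears on each list here. Among 18 neuropeptide genes and 20 immediate early genes, 0 had such a p in either direction, with medians of 0.00 and -0.02. Heat shock genes, which are raised by protein damage, had 1 of 12 higher and 0 lower, with a median of 0.01. Genes of ciliated ependymal cells had 0 of 9 higher and 3 lower, with a median of -0.14, which was -0.39 without libraries 1 and 2 of the ataxin-3 line. Imprinted genes had 13 of 17 values above 0 and 2 higher at such a p, with a median of 0.11, which was -0.02 without libraries 1 and 2. None of the genes in these lists was called by edgeR or DESeq2 between the wild types.

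Ddn, which encodes the dendritic protein dendrin, had 2.83, 2.56 and 19.2 CPM in the ataxin-3 line wild types, against 1.42, 1.42 and 2.00 CPM in the knockout line wild types. Crym, which binds thyroid hormone, had 0.643, 0.314 and 1.96 CPM in the ataxin-3 line wild types, against 0.417, 0.377 and 0.415 CPM in the knockout line wild types. Both were highest in library 3 of the ataxin-3 line, which was also the lowest of the 6 in Lars2, with 2094, 8694 and 237 CPM in the ataxin-3 line wild types, against 687, 831 and 627 CPM in the knockout line wild types.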
